A study of Homo sapiens with 6 samples.

Results

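The 5′ segment of the human long noncoding RNA CONCR is described here nucleotide by nucleotide. Its members are the nucleotides from A1 to C248 of the deposited tables, which run to G768 with A1 as the first nucleotide of the sequence. The 496 nucleotides from C249 to A744 served for comparison, and the last 24, where the cDNA primer binds, were not used. The RNA was transcribed in vitro with T7 polymerase, so no cells were probed, although the labels also carry NT2, an established teratocarcinoma line, with the genotype WT. In each reaction 3 pmol of RNA was folded for 30 min at 37 °C (50 mM HEPES of pH 7.4, 150 mM KCl, 5 mM MgCl2). It was then exposed for 6 min to 10 mM 1M7 or to its solvent DMSO, with 3 libraries of each. Every group therefore held the same synthetic RNA, without the proteins or modifications of a cell. The labels leave unsaid whether RNA was transcribed or folded anew for each replicate, so the spread behind the p-values is that of libraries and may be technical only.

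SHAPE reagents such as 1M7 acylate the 2′-hydroxyl of the ribose, and do so more readily where a nucleotide is flexible. Nucleotides held in helices are usually poorly reactive, while those in hairpin loops, bulges and linkers are often reactive, so that a profile along an RNA helps to draw its secondary structure. In mutational profiling the reverse transcriptase reads through an adduct and leaves a mutation in the cDNA. CONCR is transcribed next to DDX11, the gene of a helicase that unwinds DNA and is needed for cohesion of sister chromatids.

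The whole segment is printed because its reactive nucleotides fall into clusters that can be seen in the sequence. Capitals mark the 53 nucleotides whose mean normalized reactivity exceeded 0.85.
CONCR from A1 to C248: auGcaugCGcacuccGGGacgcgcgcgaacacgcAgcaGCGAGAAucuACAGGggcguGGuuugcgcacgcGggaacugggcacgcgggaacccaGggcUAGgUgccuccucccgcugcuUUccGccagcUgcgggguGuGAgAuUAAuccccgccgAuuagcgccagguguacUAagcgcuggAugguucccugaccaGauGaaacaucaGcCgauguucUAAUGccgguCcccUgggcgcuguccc
The short stretches that follow are the hairpins to which the results return, each with its loop in capitals.
Hairpin 23 to 67: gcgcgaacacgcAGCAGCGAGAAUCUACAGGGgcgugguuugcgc
Hairpin 96 to 108: gggcUAGGUgccu
Hairpin 132 to 155: gcggggUGUGAGAUUAAUccccgc
Hairpin 186 to 199: ugguuCCCUgacca
Hairpin 205 to 220: aacaucAGCCgauguu

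The segment comes from the head of the gene. Matched to the RefSeq promoter windows of GRCh38.p14, nucleotides 3 to 81 and 92 to 242 were identical to the minus strand of chr12:31073610-31073847, and nucleotide 3 falls on the annotated first base of DDX11-AS1, the RefSeq symbol of CONCR (chr12:31020763-31073847). DDX11 begins at position 31073860 on the opposite strand, with 12 bases between both starts. The matched stretch thus lies upstream of DDX11, inside the window that holds 250 bases before its annotated start. Nucleotides 1 and 2 did not match. The window ended opposite nucleotide 242, so the last nucleotides of the segment were not compared. Between the matched blocks, nucleotides 82 to 91 read cacgcgggaa, whereas the reference at chr12:31073761-31073768 reads atctcaac, so the RNA had 10 nucleotides where the reference has 8. The lowest effective depth there was 175377 reads and the median DMSO mutation rate 0.0819%, against 0.116% over the segment. The source of this difference was not tested.

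The segment had 63.7% G and C and the rest of the RNA 51.4%. It held 24 CG dinucleotides, 9.72 per 100, with an observed over expected ratio of 0.954, while the rest held 3.03 per 100 with a ratio of 0.458. Cytidines of CG had a median reactivity of 0.188 ± 0.0193 and other cytidines one of 0.205 ± 0.0341 (SD, n = 3 replicate tables), a difference within the spread.

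Effective depth, the number of reads in which a mutation could be called, rose from the 5′ end inwards. It was lowest at nucleotide 1, with 71739 to 107137 reads over the 6 libraries, and the medians over the segment were 162567 to 196792 reads. No mutation was counted at A1 or U2 in any library, which allows rates of up to 0.00418% and 0.00403% at the lowest depths (3 counts, counting error only). Both were kept in the profile with a reactivity of 0, and the other 246 nucleotides were tested.

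The comparison of reagent and solvent asked at which nucleotides of the segment mutations were more frequent with 1M7. With 1M7 the mutation rate, summed mutations over summed effective depth, was 0.619%, 0.626% and 0.614% in replicates 1, 2 and 3, and with DMSO it was 0.234%, 0.218% and 0.257%. The groups did not overlap, and the means of 0.620% ± 0.00628 and 0.236% ± 0.0197 (SD, n = 3) had a ratio of 2.62 (two-sided exact permutation p = 0.1, the smallest that 3 against 3 libraries allow). In edgeR's quasi-likelihood test 245 of the 246 nucleotides had a higher rate with 1M7 (adjusted p under 0.05), where 98.8% of all 742 tested nucleotides passed, so the segment shared this rise with the whole RNA. The count lower with 1M7 was 0 in edgeR, also at an unadjusted p under 0.05, and 0 in DESeq2. The median log2 ratio was 1.20 in the segment and 1.23 over all nucleotides tested. Scaling libraries to their typical nucleotide (TMM) moved the latter to -0.03, and edgeR then called 103 nucleotides of the segment above and 113 below the typical rise.

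**Figure D1:**
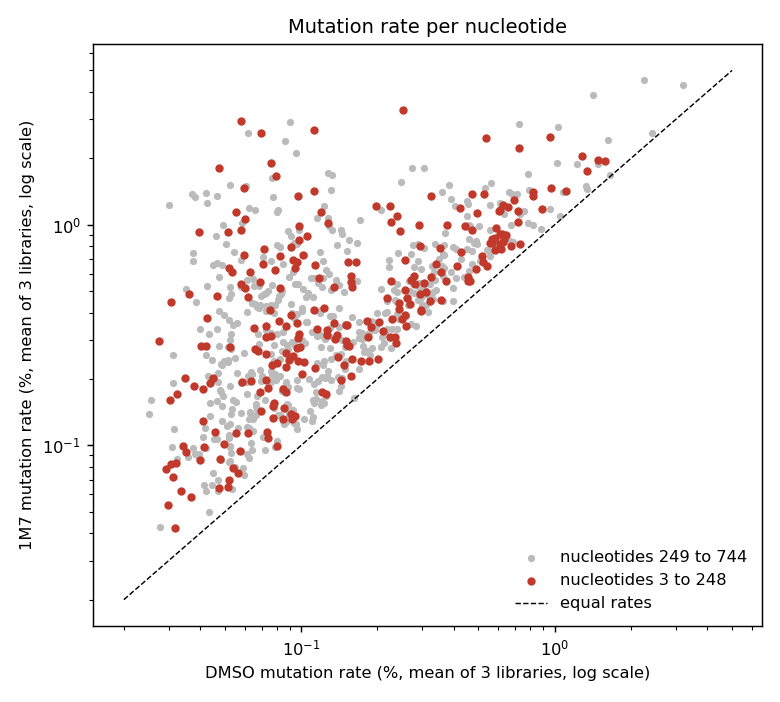
Mutation rate of each nucleotide with DMSO (horizontal) and with 1M7 (vertical), in percent on log scales, as means of 3 libraries. Red points are nucleotides from G3 to C248, grey points those from C249 to A744, and the dashed line marks equal rates. The red points lie above the line, spread among the grey ones.

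The most reactive nucleotides of the segment were purines and uridines, with a single cytidine among the 12 highest. The normalized reactivity is the authors' score, the 1M7 rate minus the DMSO rate, times a factor that is constant within a replicate. A142 had a reactivity of 4.69, 4.62 and 5.00 in replicates 1, 2 and 3, the highest of the segment. Its mutation rate was 3.24%, 3.34% and 3.34% with 1M7 and 0.238%, 0.229% and 0.287% with DMSO (log2 ratio 3.71 ± 0.08, SE, edgeR adjusted p = 1.67e-23). A35 had a reactivity of 4.44, 4.25 and 4.88, with mutation rates of 2.89%, 2.91% and 3.05% against 0.0488%, 0.0563% and 0.0692% (log2 ratio 5.66 ± 0.10, SE, edgeR adjusted p = 1.19e-24). For both, all libraries with 1M7 lay far above those with DMSO.

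Next came the neighbours U222 and A223, just beyond the last hairpin printed above. U222 had a reactivity of 3.85, 3.95 and 4.29 and A223 one of 3.87, 3.83 and 4.22, so their replicates overlapped. G212, in the loop of that hairpin, had 2.94, 3.06 and 2.99, and its DMSO rate was higher, at 0.545%, 0.491% and 0.572% (log2 ratio 2.20 ± 0.08, SE, edgeR adjusted p = 1.35e-19). G141 reached 2.85 ± 0.200, A45 2.74 ± 0.132, A42 2.48 ± 0.117, G60 2.39 ± 0.108, G203 2.34 ± 0.110, U100 2.21 ± 0.193 and C8 2.04 ± 0.0646 (SD, n = 3). Under TMM scaling G60, whose DMSO rate was 0.957%, no longer passed (log2 ratio 0.11, edgeR adjusted p = 0.0614).

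At the other end, C22, C210 and C24 had the lowest reactivity among tested nucleotides, 0.0159 ± 0.00695, 0.0206 ± 0.00386 and 0.0267 ± 0.0284 (SD, n = 3). Their rates with 1M7 did not exceed 0.0777% in any library. All passed the threshold (edgeR adjusted p = 0.0302, 0.0224 and 0.0133), but each call was lost without some libraries. For C22 this was so without 1M7 replicate 2 (edgeR adjusted p = 0.1004) or DMSO replicate 3 (0.0666). For C210 it was so without 1M7 replicate 1 (0.0607), 1M7 replicate 3 (0.0738) or DMSO replicate 2 (0.0554), and for C24 without 1M7 replicate 1 (0.120) or DMSO replicate 1 (0.0836). DESeq2 gave adjusted p = 0.0702 for C22 and 0.0660 for C210.

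U220 was the only tested nucleotide of the segment that missed the threshold. Its rate was 0.858%, 0.820% and 0.785% with 1M7 and 0.709%, 0.676% and 0.806% with DMSO, so the groups overlapped (log2 ratio 0.17 ± 0.08, SE, edgeR adjusted p = 0.0508). Without DMSO replicate 3 it passed, with a log2 ratio of 0.24 and an edgeR adjusted p of 1.10e-04. The highest DMSO rates were those of U108 (1.43% to 1.69% over the 3 libraries), C193 (1.34% to 1.62%) and G168 (1.24% to 1.48%). These nucleotides rose with 1M7 by little, with log2 ratios of 0.30 ± 0.07, 0.41 ± 0.07 and 0.38 ± 0.07 (SE, edgeR adjusted p = 3.07e-04, 1.04e-05 and 3.23e-05).

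Reactive and protected stretches were spread along the segment, without strict alternation. A reactivity under 0.4 was found at 138 nucleotides, 0.4 to 0.85 at 57 and above 0.85 at 53. The share above 0.85 was 20.97% ± 0.403 in the segment and 17.5% ± 0.349 in the rest of the RNA (SD, n = 3). The medians lay closer together. They were 0.344, 0.370 and 0.2996 in replicates 1, 2 and 3 for the segment and 0.324, 0.335 and 0.309 for the rest. The segment was thus higher in 2 replicates and lower in replicate 3 (mean difference 0.0152 ± 0.0231, SD, n = 3; exact sign-flip p = 0.5, smallest possible 0.25), so the direction was not settled. The difference was -0.0458 on the scale of log2 ratios, 0.0678 without subtraction of DMSO and 0.0536 as the mean over the 4 bases (exact sign-flip p = 0.25 for each, the smallest possible). At the 3′ limit C248 had 0.230 ± 0.0246 and its neighbour C249 0.780 ± 0.0193 (SD, n = 3).

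**Figure D2:**
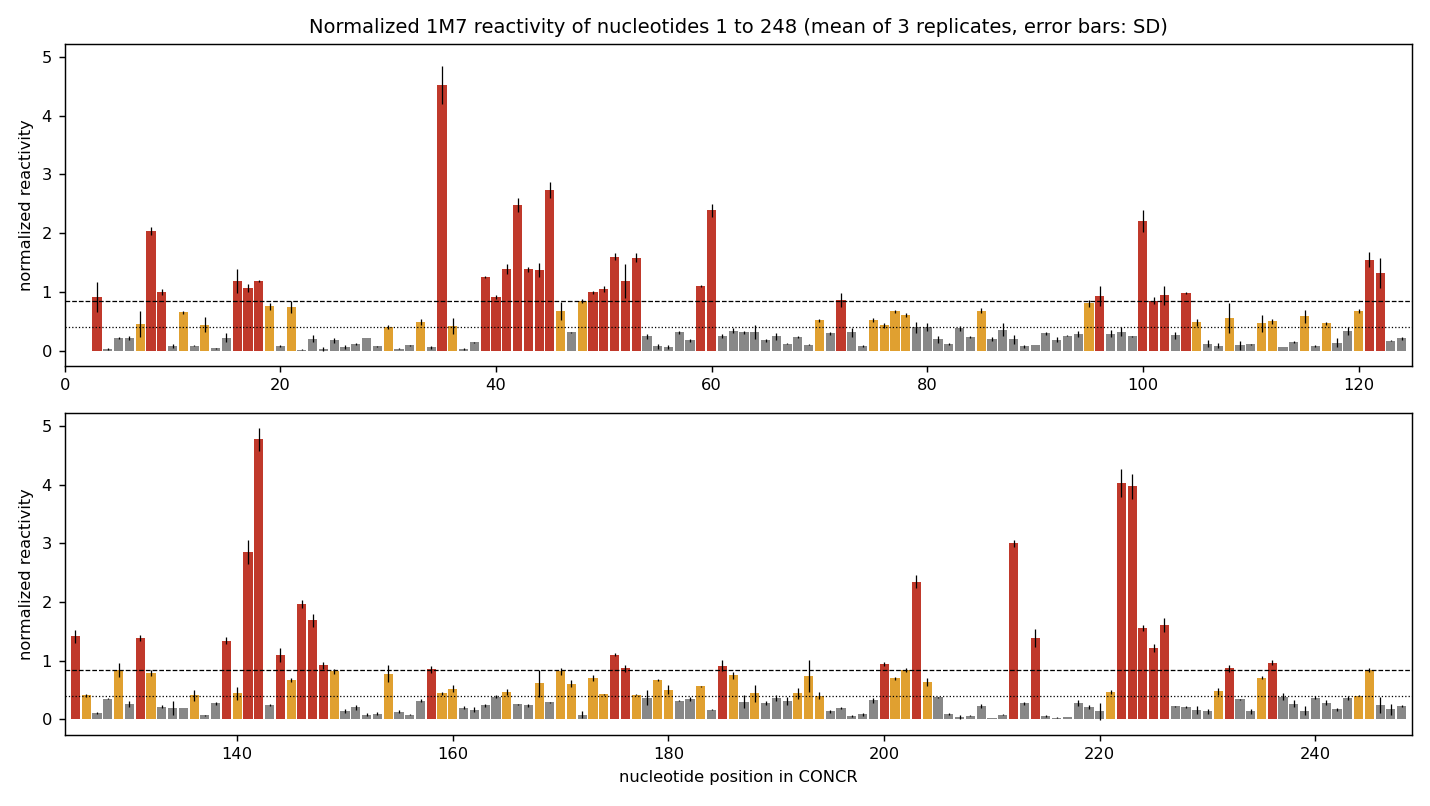
Normalized reactivity (vertical, a score without unit) at each nucleotide position of the segment, as the mean of 3 replicates with its SD. Red bars exceed 0.85 (dashed line), orange bars lie between 0.4 (dotted line) and 0.85, and grey bars are lower. The tallest bars are at 35, 142, 222 and 223, and reactive bars crowd between 39 and 53.

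Reactive runs of at least 2 nucleotides numbered 11 and held 36 nucleotides, 14.5% of the segment, while in the rest of the RNA 16 such runs held 7.46%. The longest was 39 to 45 (gcgagaa), with a median of 1.35, 1.37 and 1.46 in replicates 1, 2 and 3, followed by 49 to 53 (acagg) with 1.33, 1.36 and 1.09 and by 222 to 226 (uaaug) with 1.62, 1.51 and 1.73. The longest run of the rest had 4 nucleotides. Between 39 and 53 only U46, C47 and U48 stayed at or below 0.85, at 0.678, 0.310 and 0.846.

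Protected runs of at least 6 nucleotides under 0.4 numbered 7. The longest were 61 to 69 (uuugcgcac, median 0.234 ± 0.0486), 86 to 94 (cgggaaccc, 0.233 ± 0.0235) and 22 to 29 (cgcgcgaa, 0.0984 ± 0.0109; SD, n = 3). They covered 20.97% of the segment and 20.6% of the rest, where the longest had 16 nucleotides. The limit mattered for their number, which was 4 with 0.3 in place of 0.4. In consecutive blocks of 31 nucleotides the median was highest at 32 to 62, with 0.832 ± 0.0110 and 15 nucleotides above 0.85. It was lowest at 1 to 31, with 0.191 ± 0.0308 (SD, n = 3). In the block from 63 to 93 a single nucleotide, G72, exceeded 0.85 on the mean profile, and in replicate 3 it had 0.740.

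The first hairpin printed above held the longest reactive runs between protected arms. Its 12 pairs, 23 to 34 with 55 to 67 and G59 bulged, come from the structure of maximum expected accuracy computed from the sequence alone, which used no reactivity. Each of the structures directed by the reactivities had 11 of them and joined C30 to G59 in place of G60. The other structures from sequence held fewer of the 12 pairs. The sequence-only structure of the whole RNA had 8, as did that with pairs spanning at most 150 nucleotides. The segment folded alone from sequence had 0. Stem nucleotides had a median of 0.191, 0.190 and 0.142 in replicates 1, 2 and 3, and 21 of 24 were under 0.4. The 20 loop nucleotides had medians of 1.15, 1.12 and 1.06, far above the stem in every replicate.

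Within that hairpin the exceptions included the ends of the loop and the bulge. A35, the first loop nucleotide, stood between C34 at 0.0533 ± 0.0218 and G36 at 0.412 ± 0.135, and then C37 and A38 were quiet at 0.0279 ± 0.0111 and 0.138 ± 0.00755 (SD, n = 3). In all, 13 loop nucleotides exceeded 0.85 and 4 were under 0.4. G60, a stem nucleotide in the structure from sequence, reached 2.39, and its bulged neighbour G59 had 1.09 ± 0.0153 (SD, n = 3).

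The hairpin at 205 to 220 had the quietest stem of the 5. Its 6 pairs, aacauc with gauguu, were present in each of the 12 structures computed, 4 from sequence alone and 8 directed by reactivities. All 12 stem nucleotides were under 0.4, from 0.0206 at C210 to 0.377 at A205, with a median of 0.0683, 0.0886 and 0.0745 in the replicates. In the loop G212 had 3.00 ± 0.0613 and C214 1.39 ± 0.158, whereas A211 had 0.0809 ± 0.0104 and C213 0.277 ± 0.0268 (SD, n = 3). Within this loop reactive and quiet nucleotides therefore alternated, and A211 was close to the stem's mean median of 0.0771. Reactive nucleotides lay close by on both sides, G203 in front and U222 and A223 behind.

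The hairpin at 132 to 155 held the most reactive nucleotide. Its stem pairs gcgggg with ccccgc, and 9 of its 12 nucleotides were under 0.4, with a median of 0.188, 0.199 and 0.166 in replicates 1, 2 and 3. The 12 loop nucleotides had medians of 0.981, 0.946 and 1.11, and 7 exceeded 0.85, among them G141, A142 and U146. Next to A142, G143 had 0.242 ± 0.0163 (SD, n = 3). The sequence-only structure of the whole RNA did not hold this hairpin and paired A142 with nucleotide 301. Its base pairs had a median probability of 0.291 in the whole RNA and 0.957 when the segment was folded alone. Of the whole-RNA models directed by single replicates, that of replicate 1 had all 6 pairs and those of replicates 2 and 3 had 4. With the segment folded alone, the directed model of each replicate had all 6.

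The small hairpin at 96 to 108 was less even. Its 4 pairs were in every model directed by a replicate. Structures from sequence alone also held them, except the structure with pairs spanning at most 150 nucleotides, which had 0. Its stem had a median of 0.302 ± 0.0667 and its loop one of 0.963 ± 0.0442 (SD, n = 3), but the closing nucleotides at the base of the stem were not quiet, with G96 at 0.936 ± 0.170 and U108 at 0.553 ± 0.251, and the DMSO rates of both were above 0.5%.

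The hairpin at 186 to 199 showed the least contrast. Its stem had a median of 0.273, 0.298 and 0.252 in replicates 1, 2 and 3 and its 4 loop nucleotides had 0.452, 0.484 and 0.334. None of the loop nucleotides exceeded 0.85 on the mean profile, although C193 had 0.757, 1.02 and 0.470 in replicates 1, 2 and 3. It was in the model of replicate 1 and not in those of replicates 2 and 3, except when the segment was folded alone. On the scale of log2 ratios the loop median was lower than that of the stem, a difference of -0.0772, while in the other 4 hairpins the loop stayed higher both on that scale and without subtraction of DMSO, alternatives chosen after seeing the data. The hairpins at 132 to 155 and 186 to 199 were picked from a model that used the reactivities, so their contrasts are descriptions. The sequence alone also gave their 6 and 5 pairs when the segment was folded by itself, and the 6 pairs of 132 to 155 when pairs spanned at most 150 nucleotides, but none of them in the whole RNA without that limit.

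**Figure D3:**
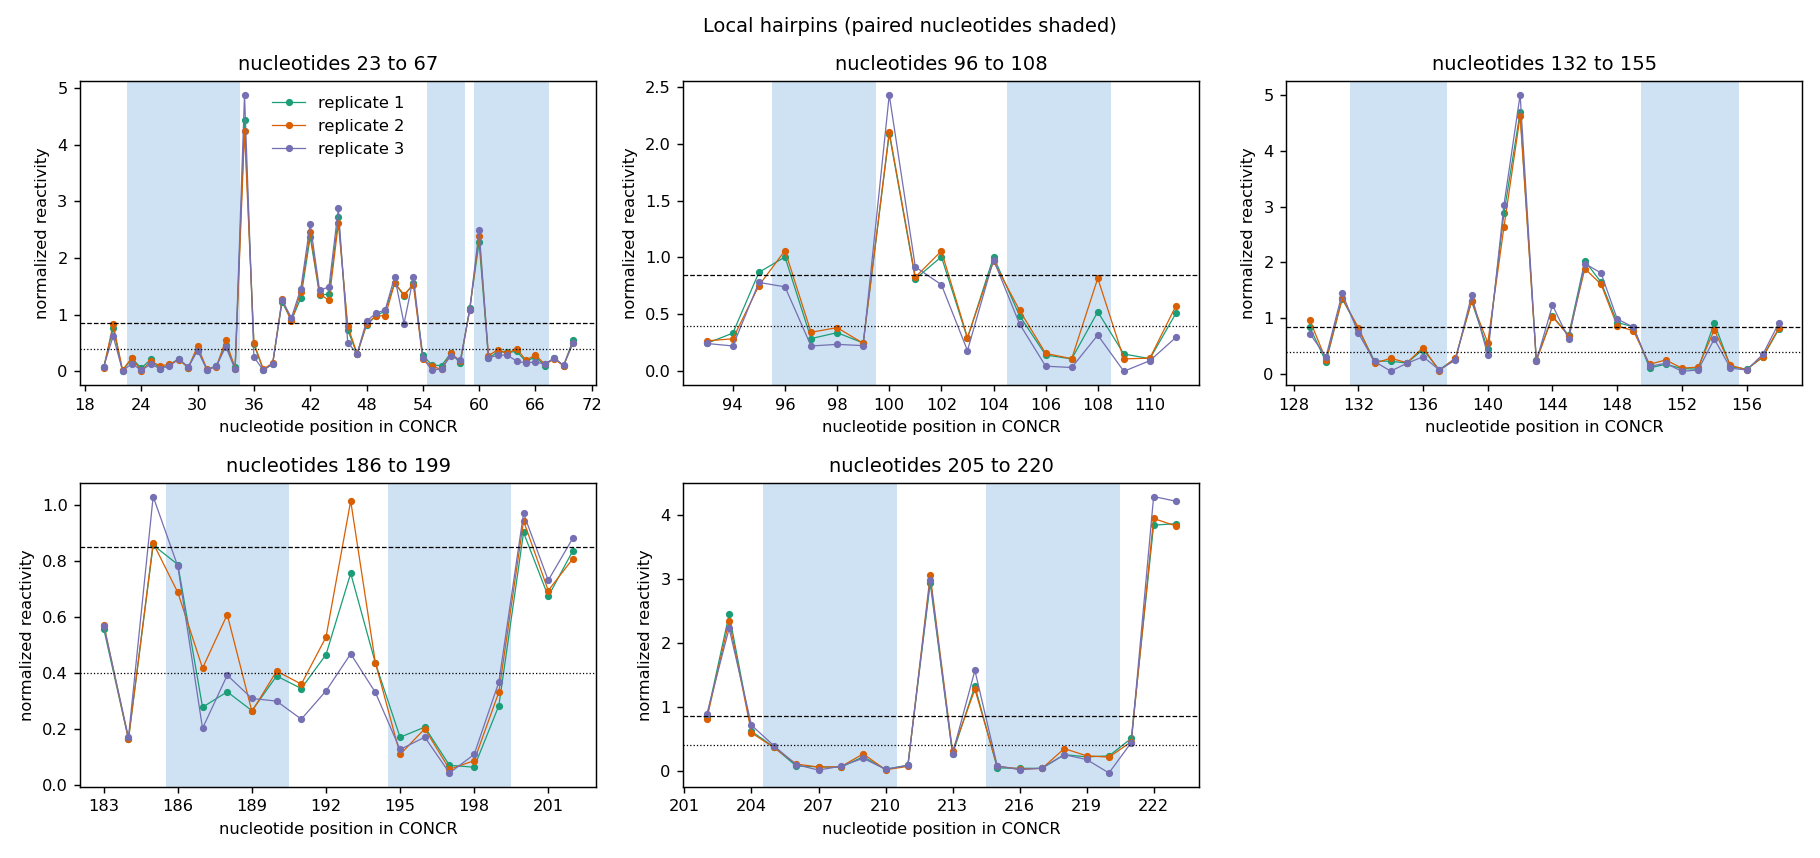
Normalized reactivity (vertical, a score without unit) by nucleotide position at the 5 hairpins, with 3 more nucleotides on either side. Lines are the 3 replicates, shading marks paired nucleotides, and horizontal lines mark 0.4 and 0.85. The tallest peak within each hairpin falls between the shaded arms, except at 186 to 199, where U186 has 0.753 and C193 0.747 on average.

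Reactivities at the other predicted helices ranged from low to high. The sequence-only structure had 8 helices of at least 4 pairs within the segment. That of 70 to 75 with 121 to 126 (gcggga with uuccgc) had a median of 0.458 ± 0.0165 (SD, n = 3), with U121 at 1.55, U122 at 1.33, G125 at 1.42 and G72 at 0.865, and none of the models directed by reactivities kept its 6 pairs. That of 183 to 189 with 241 to 247 (ggauggu with gcugucc) had 0.350 ± 0.0347 and was in none of them either. The helices of 80 to 83 with 117 to 120 (ggca with ugcu, 0.340 ± 0.0202) and of 85 to 90 with 111 to 116 (gcggga with ucccgc, 0.201 ± 0.0179) were in the whole-RNA model of replicate 1 and not in those of replicates 2 and 3. The reverse held for 195 to 198 with 229 to 232 (gacc with gguc, 0.165 ± 0.0182; SD, n = 3).

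When the segment was folded without the rest, the sequence alone gave further long-range helices. That of 50 to 55 with 232 to 237 (cagggg with ccccug) had a median reactivity of 0.791 ± 0.0202, with 6 of 12 nucleotides above 0.85. That of G16 to G21 with U243 to C248 (gggacg with uguccc) had 0.547 ± 0.0288 (SD, n = 3). Those of 23 to 26 with 239 to 242 and of 58 to 61 with 226 to 229 were lower. Their medians were 0.175 ± 0.0371 and 0.236 ± 0.0168 (SD, n = 3), with 0 and 3 of 8 nucleotides above 0.85. The helix of 160 to 165 with 178 to 183 had 0.394 ± 0.0186 (SD, n = 3). No directed model held any of these helices. Folded alone with the reactivities, the 3 replicates gave the same 74 pairs. In the models of the whole RNA, 69, 47 and 47 pairs lay within the segment for replicates 1, 2 and 3, and 27 were common to all, each of them also among the 74. Directed models use the reactivities and are no independent measure of pairing.

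Nucleotides 3 to 8 were paired with 729 to 734 in the directed whole-RNA models of all replicates. None of these 6 pairs was in the sequence-only structure, which joined the same ends by other pairs. There A1, U2, G3 and C4 were paired with 732, 731, 730 and 729. Of nucleotides 3 to 8, 3 were under 0.4 and 2 above 0.85. The latter were C8, with 2.07, 1.96 and 2.08, and G3, with 1.07, 1.06 and 0.614. C8 was high in every replicate, and G3 was lower in replicate 3 than in the others.

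Over the whole segment the sequence-only structure left 80 nucleotides unpaired. Their median reactivity was 0.475 ± 0.0379, against 0.296 ± 0.0447 at the 168 paired ones (SD, n = 3). Unpaired medians were higher by 0.209, 0.146 and 0.183 in replicates 1, 2 and 3 (exact sign-flip p = 0.25, the smallest possible). Paired nucleotides still made up 26 of the 53 above 0.85. With the segment folded alone the difference was 0.110, and with the structure of maximum expected accuracy 0.385. At guanosines the sequence-only structure of the whole RNA gave 1.26 ± 0.0504 at 14 unpaired and 0.343 ± 0.0694 at 66 paired nucleotides, but the segment folded alone gave 0.392 ± 0.0971 and 0.427 ± 0.0538 (SD, n = 3), so that the order of guanosines depended on the structure used. At adenosines, cytidines and uridines the unpaired median was the higher with both structures.

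A 12-nucleotide stretch occurs in 2 copies in the segment, gcacgcgggaac at 66 to 77 and at 81 to 92, and the copies differed in reactivity. This pair was noticed after the values were seen. The median was 0.305 ± 0.0433 in the copy nearer the 5′ end and 0.207 ± 0.0227 in the other (SD, n = 3). At 7 of the 12 positions the copy nearer the 5′ end was higher in all replicates, at 3 the other. The adenosine A75 had 0.527 ± 0.0353 and its counterpart A90 0.0894 ± 0.00117, and the cytidine C77 had 0.665 ± 0.0285 against 0.185 ± 0.0405 at C92 (SD, n = 3). Both gaps exceeded the spread between replicates. The second copy contains the 10 nucleotides that differ from the reference genome.

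Both copies overlap a G-rich motif with 4 runs of 3 guanosines, a kind of sequence that in other RNAs can form a quadruplex. The run of G87 to G89 lies within the 10 nucleotides that differ from the reference genome, which reads atctcaac there. The motif with 4 runs is therefore one of the deposited sequence and not of the reference. Capitals mark the guanosines of the runs.
G-rich motif 72 to 98: GGGaacuGGGcacgcGGGaacccaGGG
The 12 guanosines of the runs had a median of 0.313 ± 0.0773 and the other 15 nucleotides one of 0.304 ± 0.0274 (SD, n = 3), a difference within the spread. On the mean profile only G72 and G96 exceeded 0.85, and 19 of the 27 were under 0.4. In replicate 3 G72 and G96 stayed below 0.85, at 0.740 and 0.742.

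By base, adenosines and uridines of the segment had the highest median reactivity and cytidines the lowest, an order that depended on how DMSO was taken into account. The medians were 0.527 ± 0.0353 at 45 adenosines, 0.506 ± 0.0557 at 45 uridines, 0.414 ± 0.0669 at 80 guanosines and 0.192 ± 0.0203 at 78 cytidines (SD, n = 3), so that adenosines and uridines did not differ beyond their spread. The cytidine median was 0.569 of the segment's median, and 62 cytidines were under 0.4. On the scale of log2 ratios the same division gave 0.861, but a quotient of log2 values cannot be compared in size with 0.569. Guanosines were then lowest, with 0.883 ± 0.174 against 1.04 ± 0.193 at cytidines (SD, n = 3), a difference within the spread. Without subtraction of DMSO guanosines were highest with 1.06 ± 0.0528, before uridines with 0.992 ± 0.0373, adenosines with 0.593 ± 0.0394 and cytidines with 0.377 ± 0.00879 (SD, n = 3).

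Adenosines of the segment had a larger ratio of 1M7 to DMSO rates than those of the rest in every replicate, although 3 against 3 libraries cannot pass the threshold. This ratio, from mutations and depths summed over adenosines, was 10.7, 11.1 and 9.83 in replicates 1, 2 and 3 in the segment and 5.60, 5.73 and 5.42 elsewhere. Both rates differed, 0.661% ± 0.0120 against 0.578% ± 0.00295 with 1M7 and 0.0630% ± 0.00468 against 0.104% ± 0.00324 with DMSO (SD, n = 3). The segment's ratio was larger by 0.91 on the log2 scale, and by 0.67 without the 3 adenosines of highest DMSO rate in each stretch. Without the 3 most reactive adenosines of each stretch it was larger by 0.63. Cytidines differed the same way by 0.36, and by 0.32 and 0.29 with the same omissions. The difference was -0.06 for guanosines, and -0.05 and -0.13 with these omissions. For uridines it was -0.22, and -0.06 and -0.39 with them, so its size rested on a few nucleotides. In each of the 4 comparisons over all nucleotides of a base, chosen after the values were seen, the two-sided exact permutation test over 6 libraries gave p = 0.1, the smallest possible (0.1 after Benjamini-Hochberg adjustment over the 4).

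Summed over all bases the ratio was not larger in the segment. Its rate over that of the rest was 0.18 ± 0.01 on the log2 scale with 1M7 and 0.22 ± 0.03 with DMSO (SD, n = 3), a difference of -0.04 (exact permutation p = 0.2), while the mean of the 4 single-base differences was 0.25 (p = 0.1). Adenosines made up 18.1% of the segment and 23.2% of the rest, and guanosines, which had the highest DMSO rate, 32.3% and 26.2%.

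**Figure D4:**
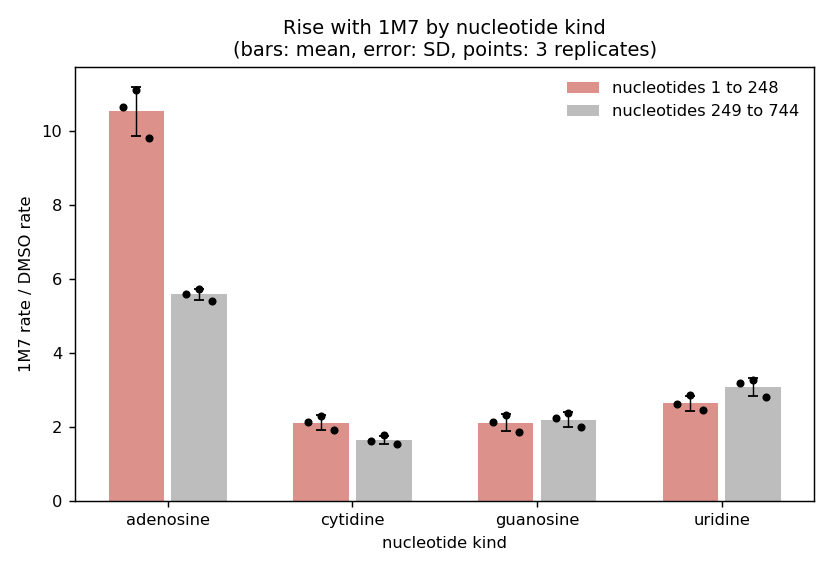
Ratio of the 1M7 to the DMSO mutation rate (vertical, no unit) for each kind of nucleotide, in the segment (red) and from C249 to A744 (grey). Bars are means of 3 replicates with the SD, and points are the replicates. At adenosines the red points, from 9.83 to 11.1, lie above the grey ones, from 5.42 to 5.73.

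Replicates kept the same profile over the segment, with Pearson correlations of 0.996 (1 and 2), 0.990 (1 and 3) and 0.985 (2 and 3) across its nucleotides, which are not independent replicates. The SD over replicates had a median of 0.0400 over the 246 tested, against 0.0294 for the deposited standard error, and exceeded it more than 2-fold at 72. Replicate 3 was the lowest of the 3 at 122 nucleotides and the highest at 81. Where the DMSO rate was at least 0.5%, replicate 3 was lowest at 31 of 38 nucleotides and highest at 2. Where that rate was under 0.1%, replicate 3 was lowest at 35 of 112 and highest at 56. The class of reactivity was the same in all replicates for 16 of those 38 and 103 of those 112. DMSO replicate 3 had the highest DMSO rate of the segment, 0.257%, and its part in these shifts was not tested.

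**Figure D5:**
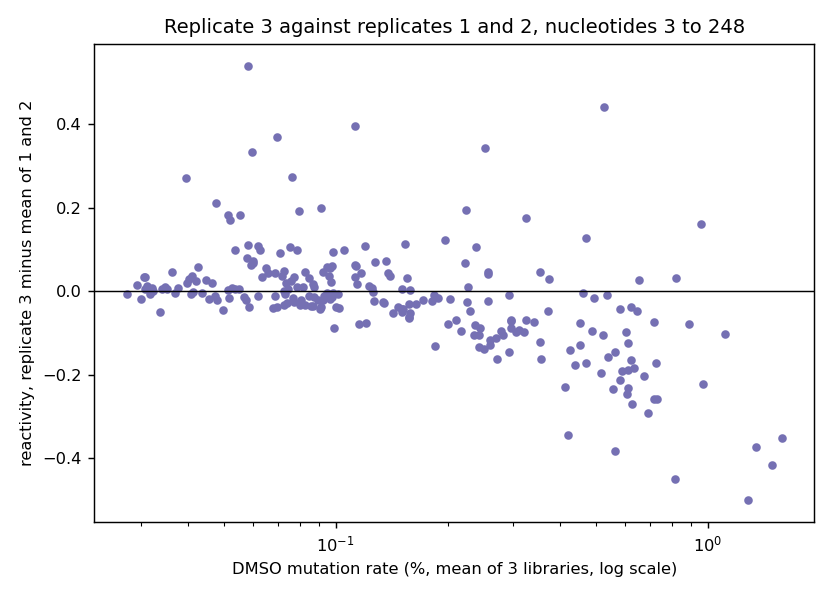
Reactivity in replicate 3 minus the mean of replicates 1 and 2 (vertical, a score without unit) against the DMSO mutation rate (horizontal, percent, log scale, mean of 3 libraries) for the 246 tested nucleotides. Each point is a nucleotide. Most points at rates of at least 0.5% lie below 0.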

How the data were processed

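SHAPE-MaP tables of 3 replicates were used, each holding the 1M7 and DMSO libraries of 1 replicate number. Mutations and effective depths are deposited counts without normalization, per the file headers. The reactivity and its standard error are scores deposited by the authors. The reactivity equalled the rate difference times 156.0, 148.7 and 164.0 in replicates 1, 2 and 3. The sources used here do not name an aligner, caller or genome build or say where the factors come from. A further 12 columns per table were not used.

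Nucleotides 1 to 744 were fitted with edgeR 4.0.16 (R 4.3.3; quasi-likelihood, log effective depth as offset, Benjamini-Hochberg over 742 tested, threshold 0.05), after a check on simulated counts. DESeq2 1.42.0 was an alternative. Rates of stretches were compared over libraries with exact permutation tests, and differences within tables with exact sign-flip tests. Structures came from ViennaRNA 2.7.2 over all 768 nucleotides, directed ones with Deigan terms (slope 1.8, intercept -0.6 kcal/mol) and no reactivity at the primer site from 745. Medians with SD are means of the 3 replicate medians, and the mean profile set classes and runs. Sequences were matched with Biopython 1.88 (exact blocks of at least 20) to RefSeq windows of GRCh38.p14.

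Named nucleotides were the 12 most reactive called higher in all pairs, the 3 of highest DMSO rate, those not called and the 3 least reactive. Named stretches were the helices of at least 4 pairs, the G-rich motif and the 3 longest runs of either class. Hairpins were those of at least 4 pairs (bulges of 1 nucleotide allowed) in the maximum expected accuracy structure or in the mean-profile model of the segment alone, a rule set after values were seen. The segment and these rules were chosen with earlier results of these data known.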

Additional observations from a re-analysis of the deposited data

How the results depend on the processing

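Of 55 repeats of overall results under alternatives, 2 reversed, 5 moved past the allowance for values or counts without a test, and 48 did neither. For results with an exact test only a change of sign could register. Their p-values cannot fall below 0.1 (permutation) or 0.25 (sign flip), so they could not cross the threshold of 0.05. The count of 48 was therefore partly fixed in advance, and some of these repeats changed in size. Thus the contrast of medians of 0.0152 became 0.0678 without subtraction of DMSO, 0.0536 over bases and 0.00491 to 0.0277 with a replicate left out. Unpaired minus paired, 0.179, became 0.110 with the segment folded alone and 0.385 at maximum expected accuracy, and reactive runs went from 11 to 16 with a limit of 0.7. TMM scaling left 103 nucleotides higher in place of 245, and turned U108 (-0.97), C193 (-0.86), G168 (-0.89), U220 (-1.10), C22 (-0.85), C210 (-0.93) and C24 (-0.83) below the typical rise. The cytidine median relative to the segment counted as moved, with 0.861 on the log2 scale, where it is a quotient of log2 values and of another kind. Of 8 predicted helices, 5 were found with the segment folded alone and 2 with pairs spanning at most 150 nucleotides, and protected runs fell to 4 with the lower limit of 0.3. The mean over bases reversed the contrast of segment and rest to 0.25, and the log2 scale turned that of the medians to -0.0458 and the loop of 186 to 199 to -0.0772 against its stem. The cause was not tested in any of these. Leaving out a library gave 242 to 245 nucleotides higher. With the replicate block edgeR also gave 245. The replicate numbers did not pair the libraries (correlations of deviations 0.0148, -0.0738 and -0.115 over all tested nucleotides). None of the 1M7 libraries correlated best there with the DMSO library of its own number. Within the segment only 1M7 replicate 2 did (0.0144). Depth limits the first nucleotides most.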
